A study of Sus scrofa with 4 samples.

Results

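miR-486, miR-451 and miR-144 are 3 of the 271 known miRNAs counted in small RNA from the longissimus dorsi of pigs, a long back muscle. They were chosen by name, as the rows called miR-486, miR-451 and miR-144. The table listed 1 row for each, with no arm (5p or 3p) in the name. The study compared muscle miRNAs of 4 breeds, with 1 sequenced library per breed. The indigenous Chinese type was represented by Diannan Small Ear and Tibetan pigs, the introduced type by Landrace and Yorkshire. The animals carried no stated treatment or allele, and the sources used here give no age or sex. Nor do they say whether a library came from 1 animal or a pool. The p-values below cover the spread between the 4 libraries and no more, and some of that spread may be technical.

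MicroRNAs are short RNAs that pair through their 5′ end, the seed, with messenger RNAs and repress them. miR-144 and miR-451 are cut from one primary transcript that the factor GATA1 switches on in red cell precursors. miR-451 is matured by the slicer AGO2 without Dicer and is among the most abundant miRNAs of red blood cells. miR-486 is made from an intron of ANK1, a gene used in red cells and in muscle, and in mouse muscle it represses FOXO1. Because red cells hold all 3 and muscle fibres make miR-486 as well, the question was whether miR-486 followed the pair of miR-144 and miR-451 over the 4 breeds. In the RefSeq gene table for Sscrofa11.1, MIR451 and MIR144 are direct neighbours within the span of ERAL1, and MIR486-1 lies within that of ANK1.

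The libraries differed widely in make-up, which bears on every value here. Counts totalled between 2507082 (Landrace) and 5346460 (Yorkshire). Rows of the striated muscle list (miR-1, miR-133, miR-206, miR-208 and miR-499) took 5.83% of the Diannan Small Ear and 7.36% of the Landrace counts, against 89.9% in Tibetan and 96.7% in Yorkshire. Pearson's r of log2(CPM + 1), taken across 197 miRNAs that are no independent replicates, was 0.981 for Diannan Small Ear with Landrace and 0.973 for Tibetan with Yorkshire. All 4 remaining pairs, which include both pairs of the same type, lay between 0.774 and 0.781. The files hold no means to check whether labels were exchanged between the types, which would alter each comparison of types below. CPM scales a count to the total of all listed miRNAs in its library, and a TMM-scaled CPM divides by a library size corrected for make-up.

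miR-486 was high in Diannan Small Ear and Landrace and low in Tibetan and Yorkshire. Its counts were 530497 in Diannan Small Ear pigs, 20567 in Tibetan pigs, 356992 in Landrace and 10670 in Yorkshire. It was the miRNA of rank 2 in Diannan Small Ear and Landrace and of rank 8 in Tibetan and Yorkshire. As TMM-scaled levels these counts were 88485 CPM, 5814 CPM, 64364 CPM and 5793 CPM in the same order. The high libraries were 1 indigenous and 1 introduced breed, and so were the low ones. Diannan Small Ear exceeded Tibetan 15.2-fold (95% counting interval 15 to 15.4), and Landrace exceeded Yorkshire 11.1-fold (10.9 to 11.3). These folds were 20.6 (20.3 to 20.9) and 71.4 (70 to 72.8) with total counts. After TMM scaling Tibetan and Yorkshire had a ratio of 1 (0.98 to 1.03), so these neighbours did not differ beyond counting error on this scale. With total counts Tibetan was 2.87-fold above Yorkshire (2.8 to 2.94). Diannan Small Ear was 1.37-fold above Landrace (1.37 to 1.38) with TMM scaling and 1.21-fold below it (1.2 to 1.21) with total counts. With 1 library per breed, ratios between breeds have no replicate check, here and below, and the intervals cover counting error only.

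miR-451, the red cell miRNA, did not share that division. Its counts were 382 in Diannan Small Ear pigs, 827 in Tibetan pigs, 614 in Landrace and 172 in Yorkshire, which is 63.7 CPM, 234 CPM, 111 CPM and 93.4 CPM after TMM scaling. Tibetan was the highest, and Diannan Small Ear, the highest for miR-486, was the lowest. Tibetan exceeded Diannan Small Ear 3.67-fold (3.25 to 4.15), Landrace 2.11-fold (1.9 to 2.35) and Yorkshire 2.5-fold (2.12 to 2.97). Landrace and Yorkshire had a ratio of 1.19 (0.999 to 1.41) and did not differ beyond counting error. The order depended on the scaling. With total counts Landrace (245 CPM) and Tibetan (230 CPM) came first and did not differ beyond counting error, with a Tibetan to Landrace ratio of 0.94 (0.846 to 1.04). Diannan Small Ear (84.9 CPM) then lay above Yorkshire (32.2 CPM), 2.64-fold (2.2 to 3.18), where TMM scaling put it 1.47-fold below (1.22 to 1.76).

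miR-144, cut from the same transcript as miR-451, ran against miR-486. Its counts were 22 in Diannan Small Ear pigs, 481 in Tibetan pigs, 35 in Landrace and 81 in Yorkshire. After TMM scaling the levels were 3.67 CPM, 136 CPM, 6.31 CPM and 44 CPM. Tibetan and Yorkshire, the libraries low in miR-486, were high in miR-144. Tibetan exceeded Diannan Small Ear 37.1-fold (24.2 to 59.7) and Landrace 21.5-fold (15.3 to 31.3). It exceeded Yorkshire 3.09-fold (2.44 to 3.96). Yorkshire was 6.97-fold above Landrace (4.63 to 10.7), but with total counts the ratio of Landrace to Yorkshire was 0.922 (0.601 to 1.39). Diannan Small Ear and Landrace did not differ beyond counting error with TMM scaling (Landrace 1.72-fold higher, 0.981 to 3.08), while total counts put Landrace 2.86-fold higher (1.63 to 5.11).

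**Figure D1:**
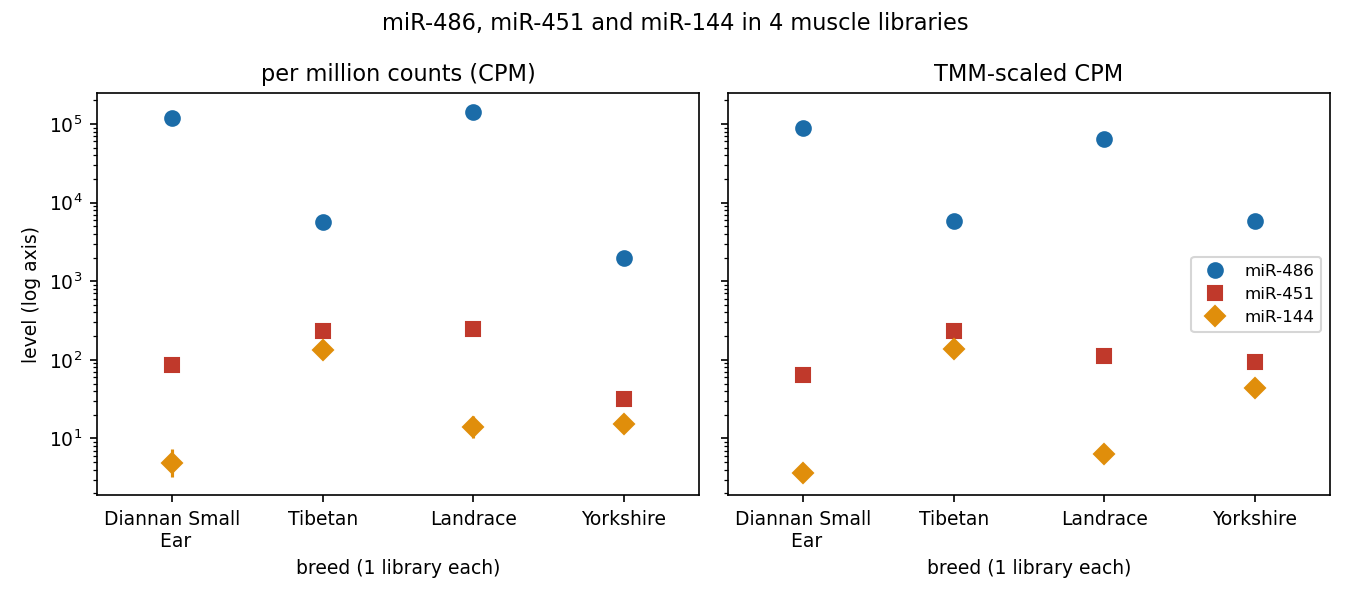
Level of miR-486 (circles), miR-451 (squares) and miR-144 (diamonds) in each of 4 libraries, as CPM (left, with 95% Wilson intervals of counting error) and TMM-scaled CPM (right), on a log axis. miR-486 lies at 88485 and 64364 TMM-scaled CPM in Diannan Small Ear and Landrace, where miR-144 lies at 3.67 and 6.31.

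Measured against all miRNAs of a pair of libraries, the 3 members moved apart. A log2 ratio between breeds minus the median over all miRNAs of that pair does not depend on the scaling. For Diannan Small Ear over Tibetan this value was 4.12 for miR-486, -1.69 for miR-451 and -5.02 for miR-144. miR-486 held rank 10 from the top of 194 miRNAs, and miR-144 rank 7 from the bottom. For Landrace over Yorkshire, which shares no library with that pair, the values were 3.69, 0.46 and -2.59. For Tibetan over Yorkshire they were -0.17, 1.15 and 1.45. For Diannan Small Ear over Landrace they were 0.43, -0.83 and -0.81, so within both pairs of similar libraries miR-451 and miR-144 lay on one side of the median and miR-486 on the other.

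Large differences between single libraries were common in this table. All 3 members differed at least 2-fold (TMM-scaled) between Diannan Small Ear and Tibetan, where 63.9% of 194 miRNAs did. All 3 also did so between Tibetan and Landrace, beside 68.6% of all miRNAs. Between Landrace and Yorkshire and between Diannan Small Ear and Yorkshire miR-486 and miR-144 did, beside 66.7% of 192 miRNAs in each. Between Tibetan and Yorkshire miR-451 and miR-144 did, beside 24.5%. Between Diannan Small Ear and Landrace 0 of 3 did, beside 8.67%. Over all pairs the count was 12 of 18, beside 49.7% of all ratios. It was 11 with RLE and with upper-quartile scaling (51% of all ratios in each) and 15 with total counts (68.5% of all ratios).

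Ratios of members inside one library need no scaling. The ratio of miR-486 to miR-451 reads was 1389 in Diannan Small Ear (95% exact interval 1256 to 1539), 24.9 in Tibetan (23.2 to 26.7), 581 in Landrace (537 to 630) and 62 in Yorkshire (53.4 to 72.5). The 4 intervals did not overlap. The ratio was 55.8-fold larger in Diannan Small Ear than in Tibetan (95% Woolf interval 49.4 to 63.1) and 9.37-fold larger in Landrace than in Yorkshire (7.91 to 11.1). It also differed inside the pairs of similar libraries, 2.39-fold between Diannan Small Ear and Landrace (2.1 to 2.71) and 2.49-fold between Yorkshire and Tibetan (2.11 to 2.94). miR-486 therefore did not keep a fixed proportion to miR-451 in any of the 6 pairs of breeds.

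The ratio of miR-486 to miR-144 spread further. It was 24114 in Diannan Small Ear (15927 to 38478), 42.8 in Tibetan (39.1 to 46.9), 10199.8 in Landrace (7334 to 14644) and 132 in Yorkshire (106 to 166). The largest was 564 times the smallest (Woolf interval 368 to 865). The Diannan Small Ear ratio rests on 22 miR-144 reads.

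miR-144 and miR-451 did not keep one proportion either, although they share a primary transcript. There were 0.0576 miR-144 reads per miR-451 read in Diannan Small Ear (0.0357 to 0.0885), 0.582 in Tibetan (0.519 to 0.652), 0.057 in Landrace (0.0393 to 0.0802) and 0.471 in Yorkshire (0.357 to 0.617). The ratio took a low value in Diannan Small Ear and Landrace and a high one in Tibetan and Yorkshire. Tibetan exceeded Landrace 10.2-fold (Woolf interval 7.13 to 14.6). Within the similar libraries no difference was detectable at this depth, with ratios of 1.01 between Diannan Small Ear and Landrace (0.584 to 1.75) and 1.24 between Tibetan and Yorkshire (0.927 to 1.65).

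**Figure D2:**
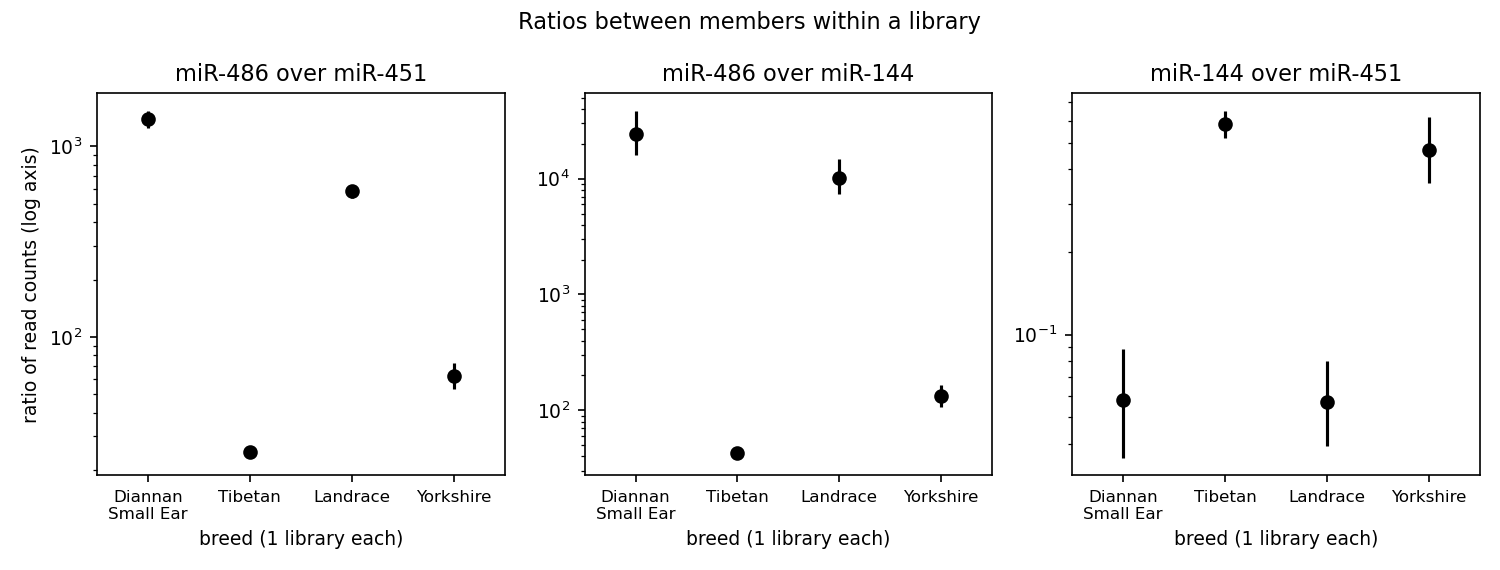
Ratio of read counts between members within each of 4 libraries (points) with 95% exact binomial intervals (lines), on log axes, for miR-486 over miR-451, miR-486 over miR-144 and miR-144 over miR-451. Diannan Small Ear and Landrace are high in the first and second panels and low in the third, where they lie at 0.0576 and 0.057.

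As a yardstick, chosen after the data were seen, the ratio between the arms of one precursor was measured. It covered 15 precursors with both arms listed at a mean of at least 10 CPM. miR-144 and miR-451 are separate genes of one transcript and not arms of one precursor, so these ratios are not of the same kind. The spread of the log2 arm ratio over the 4 libraries (SD) ranged from 0.28 for the arms of miR-30a to 3.63 for those of miR-374a, with a median of 0.97. The miR-144 to miR-451 ratio had an SD of 1.83, above 11 of the 15. The arms of miR-126 (1.78), an endothelial miRNA, lay just below it and those of the muscle miRNA miR-133a (2.13) just above. Arms of one precursor thus also differed between these libraries by up to 131-fold.

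**Figure D3:**
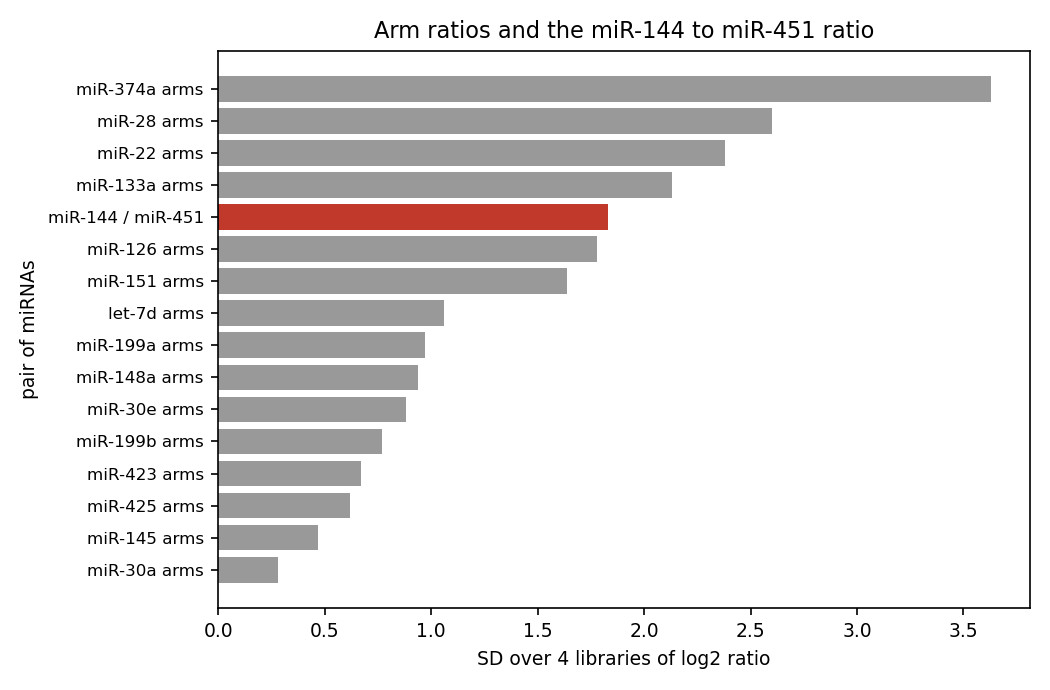
SD over 4 libraries of the log2 ratio between the arms of 15 precursors (grey bars) and between miR-144 and miR-451 (red bar), with 1 bar per pair of miRNAs. The red bar, at 1.83, lies above 11 of the grey ones.

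The likeness of profiles was described by the same SD, which is 0 for miRNAs in a constant ratio. It was computed against 136 other miRNAs that averaged 10 CPM or more, over 4 libraries that share their depth and make-up among all miRNAs, and carries no test. The profile nearest to miR-486 was that of miR-181a (SD 0.18), followed by miR-22-3p (0.37), miR-182 (0.40), let-7a (0.44) and miR-151-3p (0.45). miR-181a had 45596, 2303, 30563 and 995 reads in Diannan Small Ear, Tibetan, Landrace and Yorkshire. miR-451 held rank 87 of 136 beside miR-486 (SD 2.71) and miR-144 rank 128 (SD 4.51), where the median miRNA had 2.34. Over all 4 libraries both erythroid miRNAs were thus farther from miR-486 than the median miRNA was. For miR-451 this depended on Tibetan. Without that library miR-451 held rank 68 of 137, near the middle, and miR-144 rank 120. The rank of miR-451 was 77 of 137 without Diannan Small Ear, 85 of 132 without Landrace and 101 of 146 without Yorkshire.

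The nearest profiles to miR-451 were those of miR-497 (SD 0.22), miR-103 (0.29), miR-199b-3p (0.38), miR-139-5p (0.41) and miR-342 (0.45). miR-497 had 68, 112, 117 and 31 reads in the order above. miR-144 held rank 98 of 136 beside miR-451 and miR-486 rank 122. Nearest to miR-144 were miR-335 (SD 0.27), miR-362 (0.49), miR-450c-5p (0.50), miR-95 (0.57) and miR-374b-5p (0.60). miR-335 had 13, 198, 16 and 48 reads. miR-451 held rank 42 beside miR-144, nearer than the median miRNA (SD 2.40), and miR-486 rank 128.

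**Figure D4:**
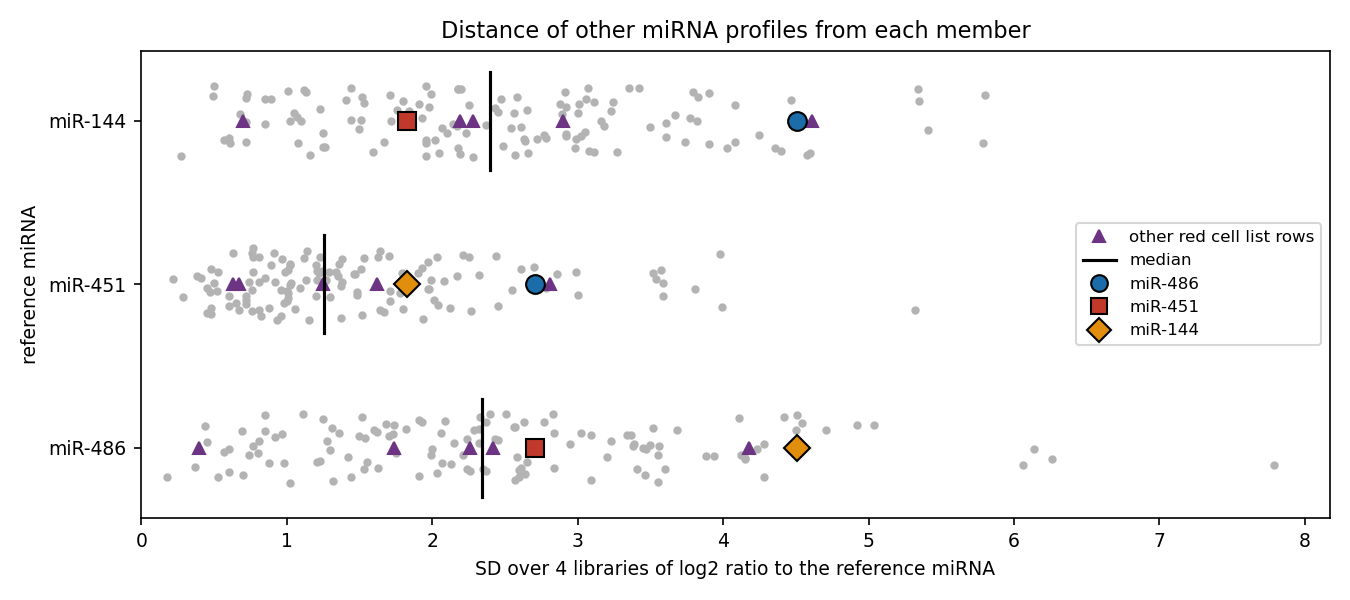
Each grey point is 1 of 136 miRNAs, placed by the SD over 4 libraries of its log2 ratio to miR-144, miR-451 or miR-486 (rows), with the median as a line, other red cell miRNAs as triangles and the members as large symbols. miR-451 (2.71) and miR-144 (4.51) both lie beyond the median of 2.34 in the row of miR-486.

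Rows of a wider red cell list lay on both sides. The list held the members and miRNAs abundant in red cells or their precursors, and 11 rows were found. The 3 most abundant were miR-486, miR-92a and miR-16. miR-92a, of the miR-17-92 cluster, was nearly level after TMM scaling but not by plain CPM. Its TMM-scaled levels were 915 CPM in Diannan Small Ear pigs, 1102 CPM in Tibetan pigs, 809 CPM in Landrace and 878 CPM in Yorkshire. Its counts were 5484, 3900, 4486 and 1618, fewest in Yorkshire, the library with the largest total. miR-16, which targets cell cycle messenger RNAs, measured 835 CPM, 390 CPM, 785 CPM and 614 CPM after TMM scaling. Beside miR-16 in the same library, miR-451 was at 0.0763 reads per read in Diannan Small Ear pigs, 0.6 in Tibetan pigs, 0.141 in Landrace and 0.152 in Yorkshire, so that only Landrace and Yorkshire had overlapping intervals (0.129 to 0.153 and 0.129 to 0.179). Of 10 rows compared, the 3 members included, 4 were at least 2-fold higher and 3 lower in Diannan Small Ear than in Tibetan. Among all miRNAs 27.3% were higher and 36.6% lower. miR-486 was among the higher rows, with miR-16, miR-182 and miR-183. miR-451 and miR-144 were among the lower ones, with miR-185. The median log2 ratio of the 10 rows was 0.15 against -0.19 over all miRNAs. Between Landrace and Yorkshire 3 of these rows were higher, miR-486 among them, and 2 lower, miR-144 among them. Of all miRNAs 32.3% and 34.4% were (median 0.35 for the list against -0.21).

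Other rows of that list took either side. miR-182, which targets FOXO messenger RNAs, had 193 reads in Diannan Small Ear pigs, 7 in Tibetan pigs, 229 in Landrace and 5 in Yorkshire, high in the libraries where miR-486 was high. miR-185 had 16, 156, 30 and 77 reads, the division of miR-144, and its SD to miR-144 was 0.70. miR-363, a miRNA of the miR-106a cluster, had 65, 72, 42 and 11 reads and an SD of 0.63 to miR-451. miR-182, miR-185 and miR-363 were named after their values were seen.

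Markers of other cells were set beside these values. White blood cell rows (miR-142 arms, miR-146a-5p, miR-150 and miR-155-5p) summed to between 170 and 320 TMM-scaled CPM, lowest in Landrace and highest in Tibetan, which was also highest for miR-451. None of these 5 rows was at 0 in a library. miR-150, a lymphocyte miRNA, was at 26.2 CPM in Diannan Small Ear pigs, 31.9 CPM in Tibetan pigs, 19.8 CPM in Landrace and 28.2 CPM in Yorkshire. miR-146a-5p measured 124 CPM, 223 CPM, 116 CPM and 152 CPM, and miR-142-5p 34.9 CPM, 36.2 CPM, 25.2 CPM and 37.5 CPM. The 5 endothelial rows, of which the most abundant were miR-126-5p, miR-126-3p and miR-221-3p, summed to between 1826 (Yorkshire) and 3018 TMM-scaled CPM (Tibetan). With CPM in place of TMM scaling the white blood cell sum was 258, 315, 375 and 82.7, highest in Landrace. The endothelial sum was then 3365, 2972, 6472 and 629 in the same order of libraries, also highest in Landrace.

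Most stromal rows and 1 liver row differed between Diannan Small Ear and Tibetan. Stromal rows, led by miR-143-3p, miR-199a-3p and miR-199b-3p, summed to between 9092 (Yorkshire) and 16987 TMM-scaled CPM (Tibetan). By plain CPM the sum was 15085, 16727, 30259 and 3132 in Diannan Small Ear, Tibetan, Landrace and Yorkshire, highest in Landrace. Of 8 rows compared after TMM scaling, 7 were at least 2-fold higher in Tibetan than in Diannan Small Ear, beside 36.6% of all miRNAs. These 7 were both arms of miR-199a, of miR-199b and of miR-145, and miR-214, so they are not separate markers. Between Yorkshire and Landrace 4 of the 8 rows were at least 2-fold higher in Yorkshire, beside 34.4%. miR-143-3p, the most abundant, measured 10759, 14558, 13015 and 7406 TMM-scaled CPM in Diannan Small Ear, Tibetan, Landrace and Yorkshire, and took neither side. miR-199a-3p, typical of connective tissue, measured 219, 762, 279 and 527 TMM-scaled CPM in the same order. The 2 liver rows found, miR-192 and miR-122, summed to 501, 9.89, 431 and 11.9 TMM-scaled CPM in that order, high where miR-486 was high. Nearly all of that was miR-192, with 2989, 25, 2314 and 13 reads. miR-122, the defining miRNA of liver cells, had 16, 10, 78 and 9. The list also held miR-194, whose row, miR-194a, was missed by the match of names. It measured 5.67, 7.35, 3.43 and 8.14 TMM-scaled CPM and was not high where miR-192 was high. The part of blood or other cells in the levels of the members was not tested. In whole muscle, fewer cells of a type and less RNA per cell cannot be told apart.

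**Figure D5:**
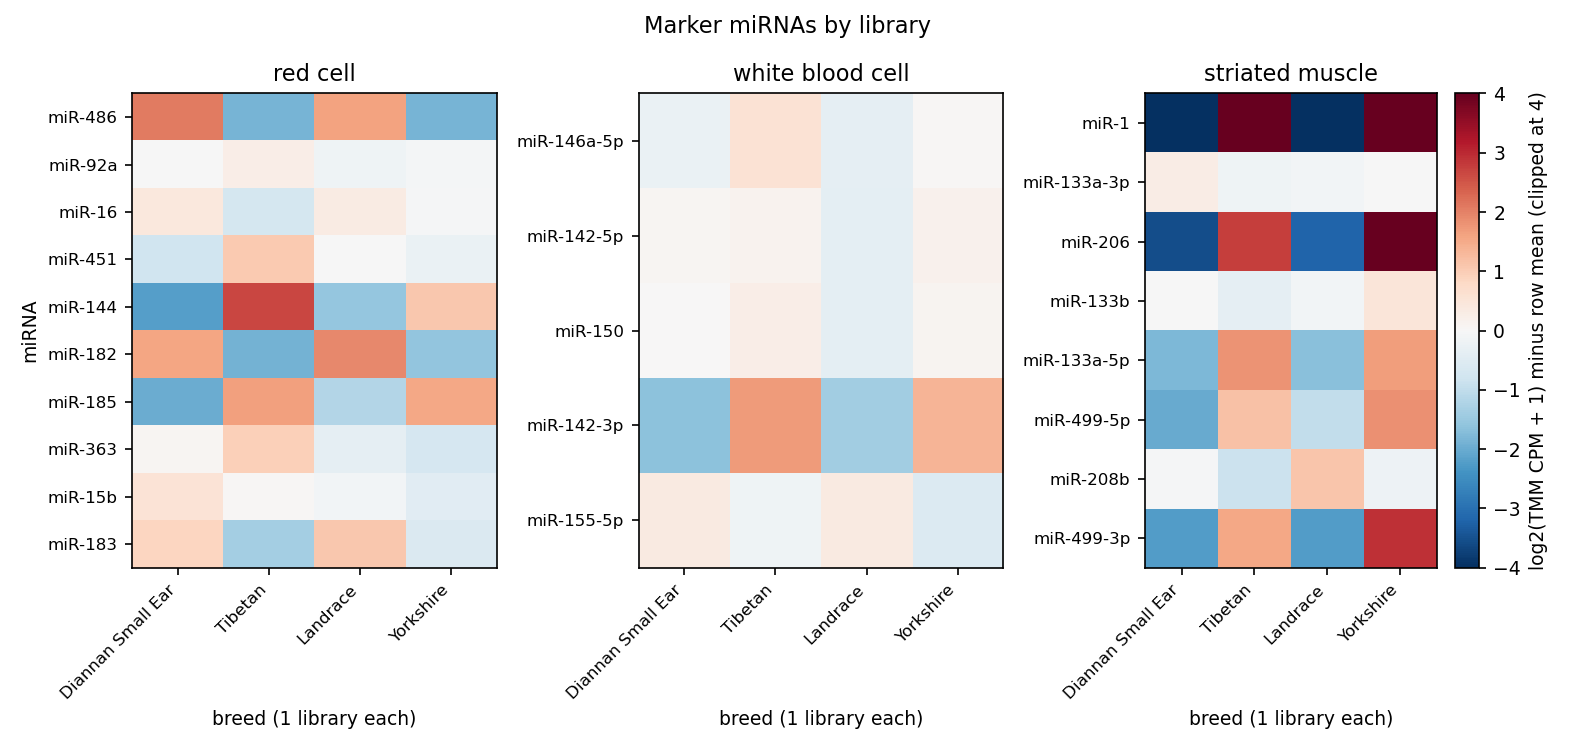
Level of red cell, white blood cell and striated muscle miRNAs (rows) in 4 libraries (columns), as log2(TMM-scaled CPM + 1) minus the mean of the row, with colours clipped at 4. miR-486 and miR-144 show opposite colours in each library, while miR-92a and miR-150 stay near 0.

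The striated muscle miRNAs differed among themselves. miR-1, which promotes myoblast differentiation, had 11541 reads in Diannan Small Ear pigs, 2996345 in Tibetan pigs, 8909 in Landrace and 4953164 in Yorkshire. Against miR-1, miR-486 stood at 46 reads per read in Diannan Small Ear and 40.1 in Landrace, and at 0.00686 and 0.00215 in Tibetan and Yorkshire. miR-206, a skeletal muscle miRNA, had 2661, 123551, 3081 and 150661 reads. miR-133a-3p, linked to myoblast proliferation, was nearly level after TMM scaling, at 40624, 29179, 30191 and 32543 CPM, but not by plain CPM. It had 243554, 103226, 167451 and 59941 reads, fewest in Yorkshire, which had the largest total. The nearest muscle profile to miR-486 was miR-208b (SD 1.68), encoded in a slow myosin gene, and the farthest was miR-1 (7.79). miR-208b was named after its value was seen. The median SD to miR-486 was 3.94 over 7 muscle rows, 3.16 over 8 stromal and 2.42 over 7 red cell rows. It was 2.37 over 3 white blood cell and 1.75 over 3 endothelial rows, against 2.34 over all 136 miRNAs. The 7 red cell rows include miR-451 (2.71) and miR-144 (4.51) themselves. The others were miR-182 (0.40), miR-16 (1.74), miR-92a (2.26), miR-363 (2.42) and miR-185 (4.18). The middle one of these, miR-92a, lay just below the 2.34 of all miRNAs.

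miR-101, which begins with a seed close to that of miR-144 in vertebrates, had 4649, 10201, 4276 and 10536 reads. There were 0.0472 miR-144 reads per miR-101 read in Tibetan (0.0429 to 0.0517), against 0.00473 in Diannan Small Ear (0.00296 to 0.00717), 0.00819 in Landrace (0.00569 to 0.0114) and 0.00769 in Yorkshire (0.0061 to 0.00956).

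Between the indigenous and the introduced type 0 of the 3 members passed the test, and the types overlapped for each, where 13.7% of all tested miRNAs had types that did not overlap. miR-486 measured 47149 ± 58457 TMM-scaled CPM in indigenous and 35079 ± 41416 in introduced breeds (SD, n = 2 each). Its log2 fold change was 0.43 ± 2.09 (SE, edgeR adjusted p = 0.996). miR-451 measured 149 ± 120 against 102 ± 12.2 CPM, a log2 fold change of 0.54 ± 1.02 (edgeR adjusted p = 0.996). miR-144 measured 69.8 ± 93.5 against 25.1 ± 26.6 CPM, a log2 fold change of 1.48 ± 1.94 (edgeR adjusted p = 0.996). All 3 estimates were higher in indigenous breeds, as were 60.9% of the 197 tested miRNAs, and the median of all was 0.12. With total counts the estimate of miR-486 was -0.22 ± 3.99. Leaving out Tibetan turned miR-451 to -0.68 ± 1.42 and miR-144 to -2.75 ± 2.29. Leaving out Diannan Small Ear turned miR-486 to -2.73 ± 3.49, and leaving out Yorkshire turned it to -0.56 ± 3.58. Such fits keep 1 library in one type, which is assumed to vary like the 2 of the other type, so their SE rests on those 2 and on the spread shared over all miRNAs.

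By edgeR 0% of all 197 tested miRNAs passed, and 1 had an unadjusted p under 0.05. DESeq2 and limma-voom also called 0, with 1 unadjusted p under 0.05 each. Of 10 red cell rows 6, the 3 members among them, were estimated higher in indigenous breeds and 4 lower. The median was 0.34 against 0.12 over all miRNAs. All 5 white blood cell rows, both arms of miR-142 among them, had higher estimates (median 0.28), 4 with total counts. So did all 8 stromal rows tested (median 0.31), 7 with total counts. Of all tested miRNAs 60.9% were estimated higher with TMM scaling. Of the 8 striated muscle rows 2 were higher (median -0.87), and 5 with total counts. Of these lists 0 rows passed.

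The log2 ratio of miR-486 to miR-451 averaged 7.54 in indigenous and 7.57 in introduced breeds, a difference of -0.03 (two-sided exact permutation p = 1, n = 2 each). That of miR-486 to miR-144 differed by -0.19 (exact permutation p = 1) and that of miR-144 to miR-451 by 0.16 (exact permutation p = 0.667). With 2 libraries against 2 this test cannot give a p below 0.333.

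The authors' deposited table gives an FDR of 1.06e-188 for miR-486 with a fold of 0.856 for indigenous over introduced breeds. For miR-144 the authors' deposited table gives a fold of 4.77 and an FDR of 5.18e-09, and for miR-451 a fold of 1.14 and an FDR of 0.578. An FDR under 0.05 is given for 83 of 271 miRNAs (30.6%) in the authors' deposited table. Which test gave these values is not stated in those sources that were used. The estimates with total counts, log2 fold changes of -0.22 for miR-486, 0.19 for miR-451 and 2.25 for miR-144, take the same directions as these folds. With TMM scaling the estimate of miR-486 has the opposite sign.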

How the data were processed

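Small RNA of longissimus dorsi was read in 4 libraries, 1 per breed, built with a Balancer kit from total RNA, per the labels' protocols. The authors deposited raw counts per known miRNA and, in further columns, CPM values, which equalled count over column total to within 4.2e-05. The authors also deposited a mean signal per type, the ratio (fold) of these means, and p-values with FDR values. For aligner, miRNA database and build: not given in the sources used here.

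Counts were tested on the whole table with edgeR 4.0.16 (quasi-likelihood, two-sided, filterByExpr, TMM, Benjamini-Hochberg, threshold 0.05), with 2 residual degrees of freedom and a biological coefficient of variation of 98.6%. edgeR gives no SE, so the SE printed was derived as the absolute log2 fold change over the square root of the F statistic. The code was tested on simulated data, where its calls were checked only at a dispersion far below that of these data. That check does not show what the test can detect here. Alternatives were other scalings, filters, DESeq2 1.42.0, limma-voom (limma 3.58.1), other pseudocounts and each library left out, and, after the data were seen, a block for pairs of similar libraries. Intervals at 95% are Wilson for shares, exact binomial for ratios of counts and Woolf for ratios of ratios. They cover counting error alone: without molecular identifiers, PCR copies of one molecule count as separate reads. Log ratios used a pseudocount of 0.5.

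Members and lists were chosen with earlier results of these data known. Named miRNAs were the members, the 5 nearest profiles to each and the 3 most abundant rows of a list. Exceptions are stated. One further list is not reported here.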

Additional observations from a re-analysis of the deposited data

How the results depend on the processing

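For the type difference in log2 terms, miR-486 turned from 0.43 to -0.22 with total counts, and ranged from -2.73 to 3.20 with 1 library left out. miR-451 ranged from -0.68 to 1.07 and miR-144 from -2.75 to 3.33. The planned settings called 0 miRNAs between the types, at a size too small for stability to be read from it. With 1 library left out, the type difference of the log2 ratio ranged from -2.93 to 2.87 for miR-486 over miR-451, from -4.75 to 4.36 for miR-486 over miR-144 and from -1.49 to 1.82 for miR-144 over miR-451. The SD of these ratios stayed within 2.31 to 3.05, 4.02 to 4.94 and 1.74 to 1.92. At a mean of 100 CPM, which leaves 81 or 82 miRNAs to rank, miR-451 held rank 53 and miR-486 rank 71 beside each other, and beside miR-144 they held ranks 26 and 75, while miR-144 fell under that mean. With total counts the log2 fold turned to -0.27 for miR-486 in Diannan Small Ear over Landrace, to 1.40 for miR-451 in Diannan Small Ear over Yorkshire and to -0.09 for miR-451 in Tibetan over Landrace. Total counts moved the median log2 ratio of all miRNAs from -0.21 to 2.47 for Landrace over Yorkshire. The labels give no replicate numbers, so none pairs the libraries. A block for the pair of similar libraries (Landrace with Diannan Small Ear and Yorkshire with Tibetan), chosen after the data were seen, gave log2 differences of 0.23 ± 0.50 for miR-486, 0.26 ± 0.45 for miR-451 and 0.50 ± 0.57 for miR-144 (SE, edgeR adjusted p = 0.96 each). It called 1 miRNA, miR-29b, and none of the members. The 22 and 35 reads of miR-144 in Diannan Small Ear and Landrace limit its ratios there.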

Other observations

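Arms of one blood or vessel precursor differed in how their reads fell over the libraries. miR-142-5p, from a precursor of white blood cells, had 209 reads in Diannan Small Ear pigs, 128 in Tibetan pigs, 140 in Landrace and 69 in Yorkshire. Its partner arm miR-142-3p had 9, 86, 11 and 35 reads in the same order, and an SD of 0.59 to miR-144 on the log2 scale. The 5p arm of the endothelial miR-126 had 14181, 6575, 15119 and 2281 reads, and the 3p arm 876, 4077, 1000 and 1065. miR-183, which shares a cluster with miR-182, had 45, 3, 50 and 4 reads, on the side of miR-486. These rows were named after their values were seen, and no test was made on them.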
